A study of Zea mays with 4 samples.

Results

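The glossy and lipid transfer genes of maize were followed in stem internodes of a CCR mutant and of samples named WS. Members were chosen by name: a probe set belonged if its gene, in the platform annotation or in RefSeq, is called gl or plt with a number, or begins with LTP. This gave 6 probe sets for 4 genes, out of 17734 probe sets and 1108 gene identifiers: 1 for plt2, 1 for gl8, 3 for gl1 and 1 for gl15. No gene whose name begins with LTP was found among the annotated probe sets.

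The aerial surface of a grass is sealed by a cuticle, a cutin layer carrying waxes that epidermal cells make from very long-chain fatty acids. Glossy genes are named for maize seedling leaves that look shiny when surface wax is reduced. The gene gl8 encodes a reductase of the fatty acid elongase, which lengthens the chains from which waxes are made, and gl1 encodes a membrane protein of wax production related to the Arabidopsis gene WAX2. The gene gl15 encodes an APETALA2-type transcription factor that maintains juvenile epidermal traits, wax among them, in early leaves. Non-specific lipid transfer proteins such as that of plt2 are small secreted proteins that bind lipids in a hydrophobic cavity, and their transcripts are known to be abundant in the epidermis of shoots.

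The 2 CCR mutant samples (plants with downregulated cinnamoyl-CoA reductase, or CCR, which commits phenylpropanoid intermediates to lignin monomers) were single extracts of 144 and 182 µg RNA, with no treatment. The 2 WS samples were pools of 1 main extract (185 and 215 µg) with 3 others of 1 µg each, and their labels carry a drought treatment (36 h, with REW between 20 and 30%). The sources used here do not say what WS stands for, what REW measures, which lines or alleles were used, or how CCR was downregulated. All plants were sampled at the stage of 6 to 7 leaves, as young stacked internodes, and each sample was hybridised to 1 Affymetrix maize array. The mutation, the treatment and the pooling therefore cannot be told apart. Whether the replicates of a group were separate plants is not stated, so the p-values cover the spread between these 4 samples, and that spread may be technical.

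Values are log2 GCRMA values, 1 per probe set and array, and differences are CCR mutant minus WS. The 4 arrays had medians between 6.55 and 6.60. Background was read from the 66 reporter probe sets, whose target genes are not of maize: on every array 65 of them had values no higher than 3.43. Over the 11085 probe sets tested (a value of at least 4 on at least 2 arrays), the median difference was -0.045. Of the 2 annotated CCR genes, cncr1 was at 8.59 and 9.14 in the CCR mutant, against 10.99 and 10.13 in WS, a difference of -1.70 (limma adjusted p = 0.68), and its arrays did not overlap between the groups. The other, cncr2, was at 5.59 and 5.13 in the CCR mutant, against 5.93 and 5.0 in WS, with a difference of -0.11 (limma adjusted p = 0.965) and overlapping groups. The labels do not say which of them was targeted.

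Of the members, plt2 and gl8 gave values far above the reporter level in both groups, gl1 gave 1 probe set a little above it and 2 within it, and gl15 stayed within it. Their largest difference was 0.27, and 0 of the 3 tested member probe sets reached an adjusted p under 0.05 (limma with Benjamini-Hochberg adjustment), while 0.153% of all tested probe sets did. At an unadjusted p under 0.05 the member count was also 0, against 6.43% of all tested probe sets. The groups did not overlap for plt2, which was higher in the CCR mutant, and for the tested gl1 probe set, which was lower. Over all tested probe sets, 36.5% did not overlap, with 13.0% higher and 23.5% lower in the CCR mutant, so such a separation is common on these arrays.

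**Figure D1:**
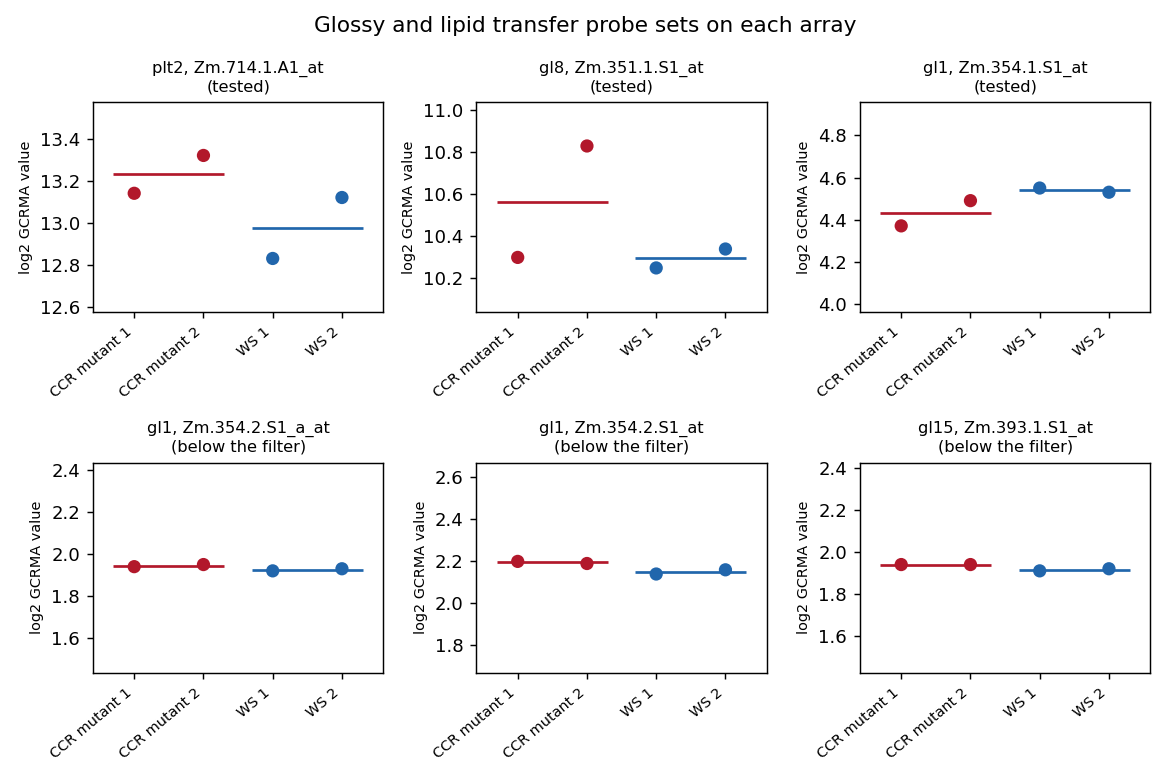
Log2 GCRMA values of the 6 member probe sets (y axis) on the CCR mutant arrays and the WS arrays (x axis). Points are single arrays, lines are group means, and every panel spans 1 log2 unit. CCR mutant replicate 2 stands apart for gl8 at 10.83, while gl15 and 2 of the gl1 probe sets lie between 1.91 and 2.20 on every array.

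The lipid transfer gene plt2 (LOC542343) was measured by 1 probe set. Its log2 values were 13.14 and 13.32 in the CCR mutant, against 12.83 and 13.12 in WS. The lower CCR mutant array exceeded the higher WS array by 0.02, so the groups only just failed to overlap. The means were 13.23 ± 0.13 in the CCR mutant and 12.98 ± 0.21 in WS (SD, n = 2 each). The difference of 0.26 (SE 0.14, 95% confidence interval -0.16 to 0.67) puts the signal in the CCR mutant at 119% of that in WS, with an interval of 89.7% to 159%. It did not pass (limma adjusted p = 0.805), and 18.1% of tested probe sets differed by more in size. The gap between the WS replicates, 0.29, was larger than the difference between the groups. The difference depended on single arrays: it was 0.11 without WS replicate 1, 0.40 without WS replicate 2 and 0.17 without CCR mutant replicate 2. In bulk internode RNA, a different number of epidermal cells and a different amount of transcript per cell cannot be told apart.

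A second gene for the same kind of protein, PLTP (phospholipid transfer protein), fell outside the naming rule. RefSeq lists PLTP as another name of plt1, but under a gene identifier other than the one the annotation gives these probe sets, so they were not counted as plt1. Its first probe set, with a name ending in _x_at, was at 12.64 and 13.04 in the CCR mutant, against 12.50 and 12.69 in WS. Its next probe set, ending in _s_at, was at 12.54 and 12.75 in the CCR mutant, against 12.38 and 12.63 in WS. On both, as for plt2, CCR mutant replicate 2 was the highest and WS replicate 1 the lowest array. Unlike for plt2, the groups overlapped on both. The differences were 0.25 (SE 0.18) and 0.14 (SE 0.14), with limma adjusted p-values of 0.813 and 0.856. These endings mark probe sets that can also match other sequences, so transcripts of related lipid transfer genes may contribute to both. Whether plt2 is one of them was not tested, so the array order shared with plt2 need not be that of a second gene. The other 2 PLTP probe sets, which have neither ending, lay between 1.87 and 2.27, within the reporter level.

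The named genes closest to plt2 across the arrays were sought among 897 tested probe sets with a gene name, by the root mean square difference after each probe set's mean was removed. These distances rest on 4 arrays and are a description. The closest was aos1 (allene oxide synthase, of jasmonate synthesis), with 10.28 and 10.47 in the CCR mutant, against 9.97 and 10.31 in WS, at a distance of 0.0206. It was followed by pdi (protein disulfide isomerase, which helps secreted proteins fold), with 10.99 and 11.12 in the CCR mutant, against 10.69 and 10.92 in WS, at 0.0277. The third was fer1 (ferritin, the iron store of plastids), with 12.81 and 12.88 in the CCR mutant, against 12.46 and 12.75 in WS, at 0.0396. All 3 had WS replicate 1 lowest and CCR mutant replicate 2 highest, as plt2 did. This follows from how they were chosen, by closeness to plt2 on these same arrays. The PLTP probe sets ranked 5 (distance 0.0602) and 11 (0.0856) in this order, where the median distance over the 897 was 0.225.

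**Figure D2:**
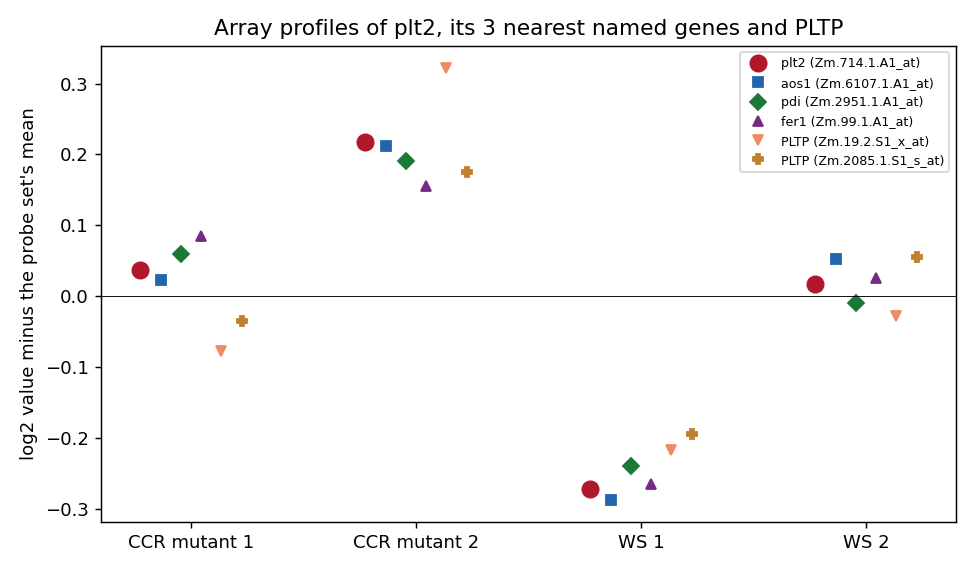
Log2 values minus each probe set's own mean (y axis) on the CCR mutant and WS arrays (x axis) for plt2, the 3 named genes nearest to it and the 2 bright PLTP probe sets. All 6 probe sets have their lowest point on WS replicate 1 and their highest on CCR mutant replicate 2. For the 3 nearest genes this follows from their choice by closeness to plt2. The PLTP probe sets were added after their values were seen and can match related transcripts, so their likeness to plt2 is not independent either.

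The elongase reductase gene gl8 (LOC542359) was measured by 1 probe set. Its log2 values were 10.30 and 10.83 in the CCR mutant, against 10.25 and 10.34 in WS. CCR mutant replicate 2 was high, while CCR mutant replicate 1 lay between the WS arrays, so the groups overlapped. The difference was 0.27 (SE 0.21, 95% confidence interval -0.33 to 0.87), or 121% of WS with an interval of 79.5% to 183% (limma adjusted p = 0.819). The CCR mutant replicates differed by 0.53 and the WS replicates by 0.09, where the medians over all tested probe sets were 0.12 and 0.14. The whole difference came from 1 array: it was 0.005 when CCR mutant replicate 2 was left out, and 0.54 when CCR mutant replicate 1 was. With 1 array left in the CCR mutant, that fit takes its spread from the WS pair and the prior alone (95% confidence interval 0.15 to 0.92, limma adjusted p = 0.803), and the lone array is assumed to vary like them.

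The wax gene gl1 (LOC542154) was represented by 3 probe sets that disagreed on whether there was signal. The first had log2 values of 4.37 and 4.49 in the CCR mutant, against 4.55 and 4.53 in WS. Both CCR mutant arrays lay below both WS arrays, and all 4 values were close to the minimum of 4. The difference was -0.11 (SE 0.08, 95% confidence interval -0.35 to 0.13), or 92.7% of WS with an interval of 78.5% to 109% (limma adjusted p = 0.819). Leaving out CCR mutant replicate 1 made it -0.05, and leaving out CCR mutant replicate 2 made it -0.17. In size it was close to the median over all tested probe sets, 0.105, with 47.1% of them differing by more.

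**Figure D3:**
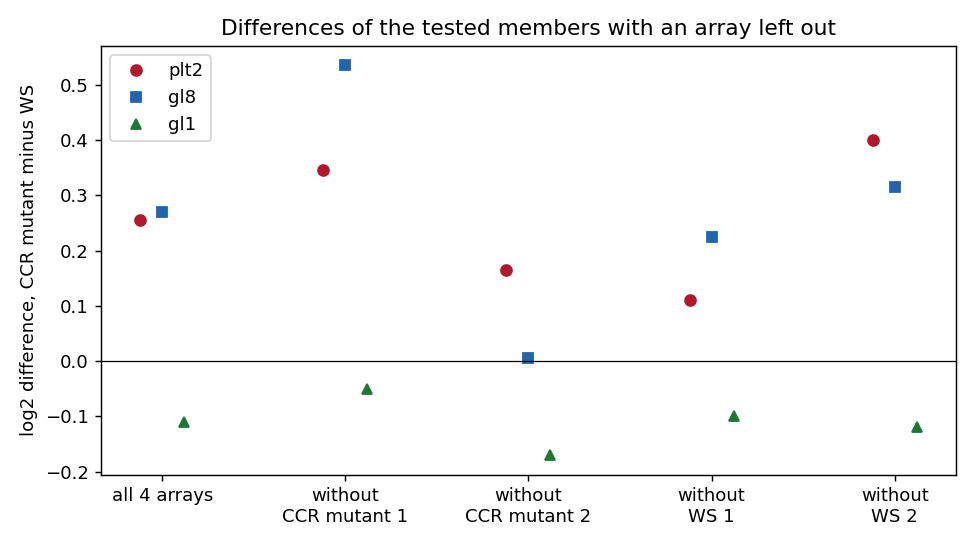
Log2 difference, CCR mutant minus WS (y axis), of plt2, gl8 and gl1 (its tested probe set) with all 4 arrays and with each array left out (x axis). The difference of gl8 runs between 0.005 and 0.54 and that of plt2 between 0.11 and 0.40, while gl1 stays between -0.17 and -0.05.

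The other 2 probe sets of gl1 were not tested. The second, ending in _a_at, was at 1.94 and 1.95 in the CCR mutant, against 1.92 and 1.93 in WS. The third was at 2.20 and 2.19 in the CCR mutant, against 2.14 and 2.16 in WS. The values of both lie near the reporter median of 2.07, so they carry no level of gl1 beyond an upper limit at background. The juvenile wax regulator gl15 (LOC732805), with 1 probe set, was at 1.94 on both CCR mutant arrays, against 1.91 and 1.92 in WS, and was not detectable above background in either group.

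For these 3 untested probe sets both CCR mutant arrays were higher than both WS arrays, by a mean of 0.02 to 0.045. The same was true of 85.1% of the 6470 probe sets below the filter, whose median difference was 0.03, and the reporter probe sets had a median difference of 0.035. The separation of gl15 and of the dim gl1 probe sets was thus of the size found for probe sets at background in general.

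**Figure D4:**
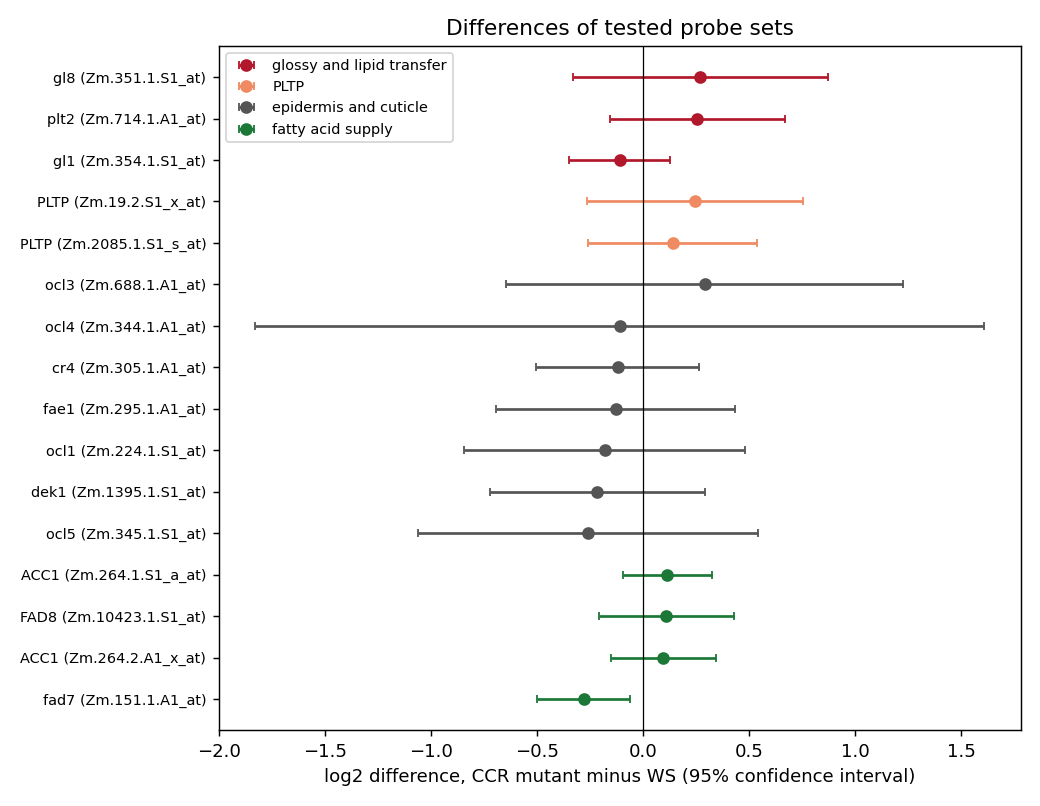
Log2 differences, CCR mutant minus WS (x axis), with 95% confidence intervals from limma for each tested probe set (y axis) of the glossy and lipid transfer genes, PLTP, and the lists of epidermis and cuticle genes and of fatty acid supply genes. The intervals of plt2, gl8 and gl1 include 0, and of all those drawn the interval of fad7 (-0.50 to -0.06) does not.

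Other genes of the epidermis and cuticle give the setting in which the members were measured. Of the 9 genes of this list, 7 were tested, with 1 higher and 6 lower in the CCR mutant and 0 passing; their median difference was -0.13, beside -0.045 over all tested probe sets, of which 36.7% were higher and 61.9% lower. The groups overlapped for all 7. The epidermal HD-ZIP IV factor ocl1 was at 8.25 and 7.99 in the CCR mutant, against 8.03 and 8.57 in WS, a difference of -0.18 (SE 0.23). Its relative ocl4 was at 6.08 and 6.39 in the CCR mutant, against 5.55 and 7.14 in WS, so the WS arrays lay on either side of the CCR mutant arrays, 1.59 apart. Of the same family, ocl3 differed by 0.29 (SE 0.33) and ocl5 by -0.26 (SE 0.28). The receptor kinase cr4, needed for epidermal and aleurone cell fate, differed by -0.12 (SE 0.13), and dek1, a membrane calpain of the same pathway, by -0.22 (SE 0.18; the smallest p of the list, limma adjusted p = 0.826). The fatty acid elongase gene fae1 was at 10.30 and 10.50 in the CCR mutant, against 10.30 and 10.76 in WS. The remaining members, ocl2 and the leaf margin factor ns1, were between 2.17 and 2.27 on every array.

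Of the 7 tested genes of this list, 5 had their highest value on WS replicate 2, and 5 had their lowest on WS replicate 1, which for fae1 was tied with CCR mutant replicate 1. Between WS replicates 1 and 2 the median gap over the 7 genes was -0.54. The corresponding gaps of the members were -0.29 for plt2, -0.09 for gl8 and 0.02 for gl1. WS replicate 2 was thus higher than WS replicate 1 for plt2 and most epidermal genes, but the 2 WS arrays were close for gl8 and gl1. This direction was not particular to epidermal genes. The median gap was -0.42 over the tested dividing cell markers described below, but 0.20 over leaf markers and 0.35 over xylem markers. Over all tested probe sets the median size of the gap, in either direction, was 0.14.

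Fatty acid supply was covered by 4 probe sets for 3 genes, 3 of them higher and 1 lower in the CCR mutant (median 0.10, 0 passing). Over all tested probe sets, 36.7% were higher and 61.9% lower. The plastid omega-3 desaturase gene fad7 was at 8.66 and 8.64 in the CCR mutant, against 8.89 and 8.97 in WS. The groups did not overlap, and the difference was -0.28 (SE 0.08, limma adjusted p = 0.761). FAD8, a second desaturase of this kind, differed by 0.11 (SE 0.11). The acetyl-CoA carboxylase gene ACC1, which makes the malonyl-CoA used in chain growth, was at 11.05 on both CCR mutant arrays, against 10.96 and 10.91 in WS, a difference of 0.12 (SE 0.07). The difference on its other probe set was 0.10 (SE 0.09). The groups did not overlap on either ACC1 probe set, with the CCR mutant higher, the opposite direction to fad7. Such a separation, in either direction, held for 36.5% of all tested probe sets. In size, 45.5% of all tested probe sets differed by more than the first ACC1 probe set, and 52.7% by more than the other. None of the 4 fatty acid supply probe sets reached the threshold over all tested probe sets.

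Markers of other cell types also varied between arrays. Dividing cell markers had 11 tested probe sets for 9 genes (cyclins, MCM genes, PCNA and a core histone), with 0 passing. All 11 were lower in the CCR mutant (median -0.30) and had their highest value on WS replicate 2. Over all tested probe sets the median was -0.045, and 61.9% were lower. The groups did not overlap for 4 of the 11, beside 36.5% of all tested probe sets. The log2 of the summed signal of the 11 was 12.49 and 12.45 in the CCR mutant, against 12.51 and 12.81 in WS. Of the 10 tested probe sets of photosynthetic leaf markers (8 genes), 9 were higher in the CCR mutant (median 0.08), beside 36.7% of all tested probe sets. The groups overlapped for all 10. Their summed signal was 15.40 and 15.56 in the CCR mutant, against 15.52 and 15.32 in WS. The 4 markers of xylem and secondary wall, at 11.99 and 12.37 in the CCR mutant and 12.49 and 12.13 in WS when summed, had a median of -0.18. Of these lists, cycD1 and 1 probe set of lhcb6 were at background. The part of these shifts in the values of plt2, gl8 and gl1 was not tested.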

How the data were processed

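The authors deposited log2 values for all 4 arrays; the submitters' processing notes name GCRMA, and the labels' protocols give 20 µg of amplified RNA for each array. GCRMA corrects background by probe base composition and normalizes arrays by quantiles. The base of the logarithm is not stated and was taken as 2 from the range of 1.12 to 14.1. All 4 columns were used without further normalization. The 179 control probe sets (113 AFFX, 66 reporter) were left out.

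Probe sets with at least 4 on at least 2 arrays were fitted by limma 3.58.1 under R 4.3.3 (lmFit and eBayes). Tests were two-sided, with Benjamini-Hochberg adjustment over all 11085 (2 residual and 1.70 prior degrees of freedom). The fit was tested on simulated data with differences larger than those of the members. That simulation does not show how well differences of the members' size would be found. Precision is limited by the number of arrays.

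The platform annotation of 2007 gives 1452 probe sets 1 gene, 1 several and 16281 none. RefSeq (assembly Zm-B73-REFERENCE-NAM-5.0) held 1060 of its 1108 gene identifiers and all 4 of the members. No coordinates are printed, as the sources used here give no build for the array. Members, lists and tests were chosen with earlier results of these data known. The genes named are all members, both CCR genes, the 3 genes nearest to plt2, the genes of the epidermis and fatty acid lists, and, from the lists of dividing cell and leaf markers, those that show what the lists hold or were at background; PLTP was added after its values were seen. The lists were also to be matched by gene descriptions, which were not used here, so they rest on names alone.

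Alternatives changed the filter (none, or a minimum of 6), the variance model (with a trend, or robust), the scaling (quantiles again, or centring on medians) and the design (replicate block). Others left out probe sets ending in _s_at or _x_at, or each array in turn.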

Additional observations from a re-analysis of the deposited data

How the results depend on the processing

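The count of members passing was 0 in the fit of the report and under all 12 alternatives, in each of which plt2, gl8 and gl1 kept the sign of their difference where tested (a filter at 6 leaves gl1 untested). With an array left out the differences lay between 0.11 and 0.40 for plt2, between 0.005 and 0.54 for gl8 and between -0.17 and -0.05 for gl1, and the member count was 0 each time. Under the other alternatives they lay between 0.26 and 0.30, 0.27 and 0.31, and -0.12 and -0.07. Over all settings the limma adjusted p-values lay between 0.473 and 0.983 for plt2, 0.539 and 0.992 for gl8, and 0.468 and 0.983 for gl1. With the replicate number as a block, 0 members passed and the plt2 difference of 0.26 had a limma adjusted p of 0.709. Same-numbered samples deviated together (r = 0.35 across tested probe sets, which are not independent), but with 2 pairs and no such label they share only a number. The count over all tested probe sets was 17, and it was 0 with the block or with any array left out and 9 with no filter. Values near 2, as for gl15, are at background. They set an upper limit on the level, but no limit on the size of a change below that level.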
